A study of Mus musculus with 9 samples.

Results

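The 32 neuropeptide precursor genes described here were chosen by name, as genes whose messenger RNA encodes a secreted peptide transmitter, a peptide hormone or a granin, and each has a row among the 49315 genes of the deposited count table. They were measured by RNA-seq of polyA-selected RNA from whole brains of male wild-type C57BL/6J mice, 5 young mice (labelled 3 months) and 4 old mice (33 months), 1 brain per library. Old replicate 2 was not analysed here. Total counts ran from 14229259 to 21150439 in the young libraries and from 14285654 to 18742861 in the old ones, and the 32 genes together took between 0.137% and 0.159% of them. Values are CPM, a gene's counts scaled to the normalised size of the library, except where levels of different genes are compared, which was done in TPM, a scale that also divides by gene length. Values after ± are SDs over 5 young or 4 old libraries unless named as standard errors (SE).

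Neuropeptides are made as large precursor proteins that enter the secretory pathway, are packed into dense core granules, and are cut by prohormone convertases into short active peptides. They are released on strong firing and act slowly through G protein-coupled receptors, often far from the release site. Many precursors are made by small groups of neurons in a few brain regions, so in RNA from a whole brain their level depends both on those neurons and on how much of the region the sample holds. In such bulk RNA, fewer cells of a type and less RNA per cell cannot be told apart.

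The libraries differed in their content of brain regions within each age, judged from marker genes of regions. The summed level of 5 olfactory bulb markers, of which Cdhr1 was the most abundant, was 145 CPM in old 5, 64.5 in young 2, 52.3 in old 3 and 35.6 in old 1. It lay between 13.7 and 19.0 CPM in the other 5 libraries. Old 5 and young 2 thus stood highest within their own age. The hindbrain and spinal cord patterning gene Hoxb5 had 0 counts in old 1 and 10 in old 3, against 61 to 134 in the other 7 libraries, and Hoxa5 had 1 and 9 counts there against 57 to 121. The summed midbrain and hindbrain markers (8 genes, most abundant Slc6a5) were lowest in old 1 at 22.6 CPM and reached 131 CPM in young 3. Cerebellar markers (6 genes, most abundant Car8) were lowest in old 3 and old 5, at 413 and 508 CPM, and highest in young 1 at 923 CPM. The 10 hypothalamus markers (most abundant Otp) summed to 6.01, 13.5, 12.5, 9.90 and 12.7 CPM in young 1 to 5 and to 8.02, 8.74, 8.15 and 7.92 CPM in the old libraries, so young 1 was lowest. Pituitary markers came to between 36 and 100 counts per library, and the pituitary hormone genes Prl and Gh were at 0 counts in several libraries. No marker was at 0 in every library. Among cells other than neurons, microglial markers (6 genes) were high in young 4 for its age, at 278 CPM. The remaining young libraries had 203 to 229 CPM and the old ones 271 to 327 CPM. Erythroid markers (5 genes, most abundant Hbb-bs) were 86.1 to 116 CPM in young and 128 to 409 CPM in old libraries, with no overlap. In the main fit 3 of the 5 (Alas2, Hba-a1 and Hbb-bs) were called higher in old mice, each also past the fold threshold given below. Endothelial markers (5 genes, most abundant Cldn5) were 171 to 181 CPM in young and 187 to 216 CPM in old libraries, with no overlap, and 3 of the 5 were called higher in old mice (Pecam1, Flt1 and Cdh5). The other 2, Cldn5 and Tek, were not called and had a negative log2 fold change, old over young. Whether these differences account for any result below was not tested. For the called genes, values without the libraries that stood apart or with marker levels as covariates are given where they end the call.

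**Figure D1:**
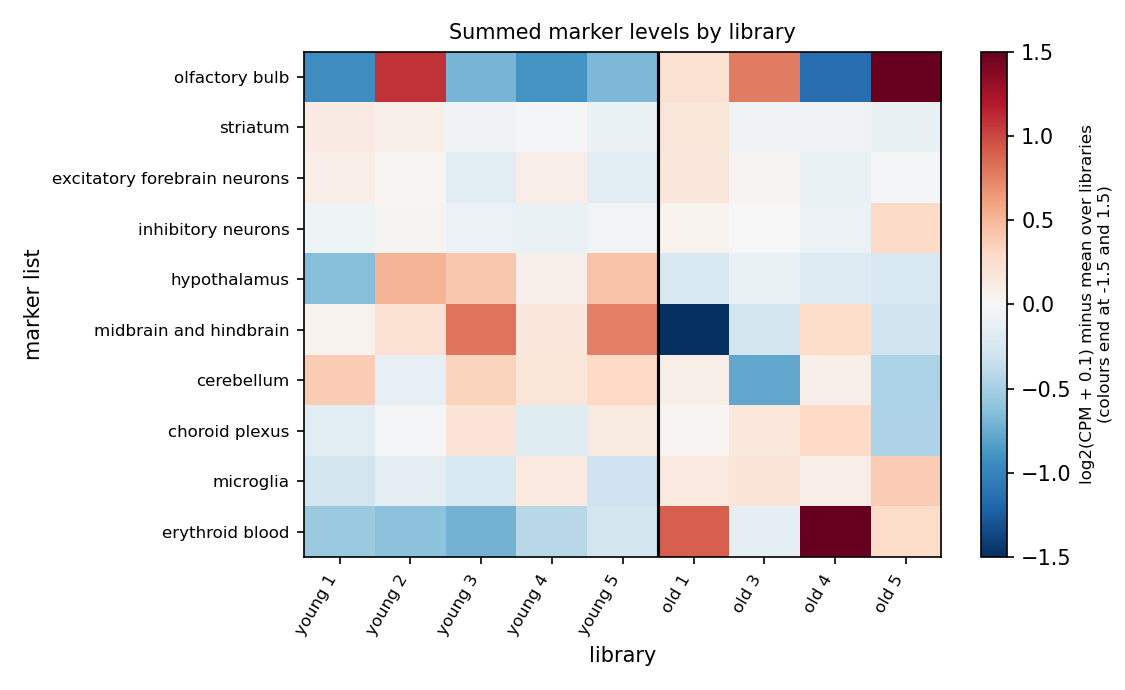
Summed CPM of 10 lists of region and cell type markers (rows) in each library (columns), as log2(CPM + 0.1) minus the mean over the 9 libraries. The olfactory bulb row is highest in old 5 (145 CPM) and young 2 (64.5 CPM), and the midbrain and hindbrain row is lowest in old 1 (22.6 CPM).

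Per length, the most abundant precursor was Sst in both ages, at 481 ± 84.0 TPM (SD, n = 5) in young and 415 ± 37.7 TPM (n = 4) in old mice. Chgb, Scg2, Cck, Chga and Penk followed with mean levels of 237 to 422 TPM in young mice, and Npy with 129 TPM. The ranges of 1 SD around the means overlapped between neighbours in this order, except between Chgb and Scg2 and between Penk and Npy. These SDs are over libraries and do not decide the order within a library. Sst lay above Chgb in every library, while Scg2, Cck, Chga and Penk changed order between libraries. The rarest were Nms (0.210 TPM in young, 0.419 in old) and Ucn3 (0.348 and 0.611 TPM). The first 4 places and the last 2 were the same in both ages. Oxt moved from place 9 to 13, while Vip, at 9.56 ± 1.61 and 11.4 ± 1.79 TPM, moved from 25 to 19. The TPM scale differed between libraries. Chgb stood at 553 TPM in young 3 and 355 TPM in young 4, where its CPM were 445 and 446. The SDs in TPM hold this difference, and the TPM means are not used to compare old with young mice.

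The comparison of old with young mice used the quasi-likelihood test of edgeR over the 18492 genes that passed a filter on low counts, with Benjamini-Hochberg adjustment, and a gene was called at an adjusted p under 0.05. Of the 32 precursors, 30 passed the filter, and 4 of these were called (13.3%). Among all genes tested 11.0% were called. Vip and Tac1 were higher in old mice, where the background of calls in this direction was 6.09%, and Nts and Chga were lower, where it was 4.89%. This even split was not kept in every setting, since limma on log2(TPM + 1) called 1 higher and 5 lower (1 and 7 without robust estimation), edgeR with no filter on low counts 3 and 7, and edgeR without young 1 called 1 and 6. Over all genes, these fits called 260 higher and 258 lower (2.80%), 307 and 287 (3.21%), 1505 and 1297 (8%), and 846 and 676 (8.23%). Old and young libraries did not overlap for 2 of the 30, Nts and Chga, both lower in old. Among all genes 12.6% did not overlap, 6.08% with every old library below every young one and 6.50% with every old library above. The share of members called was near that of all genes, while their share without overlap was below that of all genes (a difference not tested), and 0 of the 30 had every old library above every young one. The log2 fold change (old over young, log2 FC) was positive for 9 members and negative for 21, with a median of -0.06, against a median of -0.000092 over all genes tested. An unadjusted p under 0.05 was found for 12 of the 30 and for 25.5% of all genes. None of the 30 passed the study's further threshold of an absolute log2 FC over 0.58, which 2.50% of all genes tested passed. With that fold threshold, 3 members (Avp, Pomc and Ucn) had an unadjusted p under 0.05 and DESeq2's Wald test called 1, Avp. Limma on log2(TPM + 1) called 5, or 7 without robust estimation of its prior. The share of all genes past the fold threshold was not counted for the unadjusted p or for these fits. Without the fold threshold, DESeq2's Wald test called 11.5% of all genes and limma 2.80%, or 3.21% without robust estimation.

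**Figure D2:**
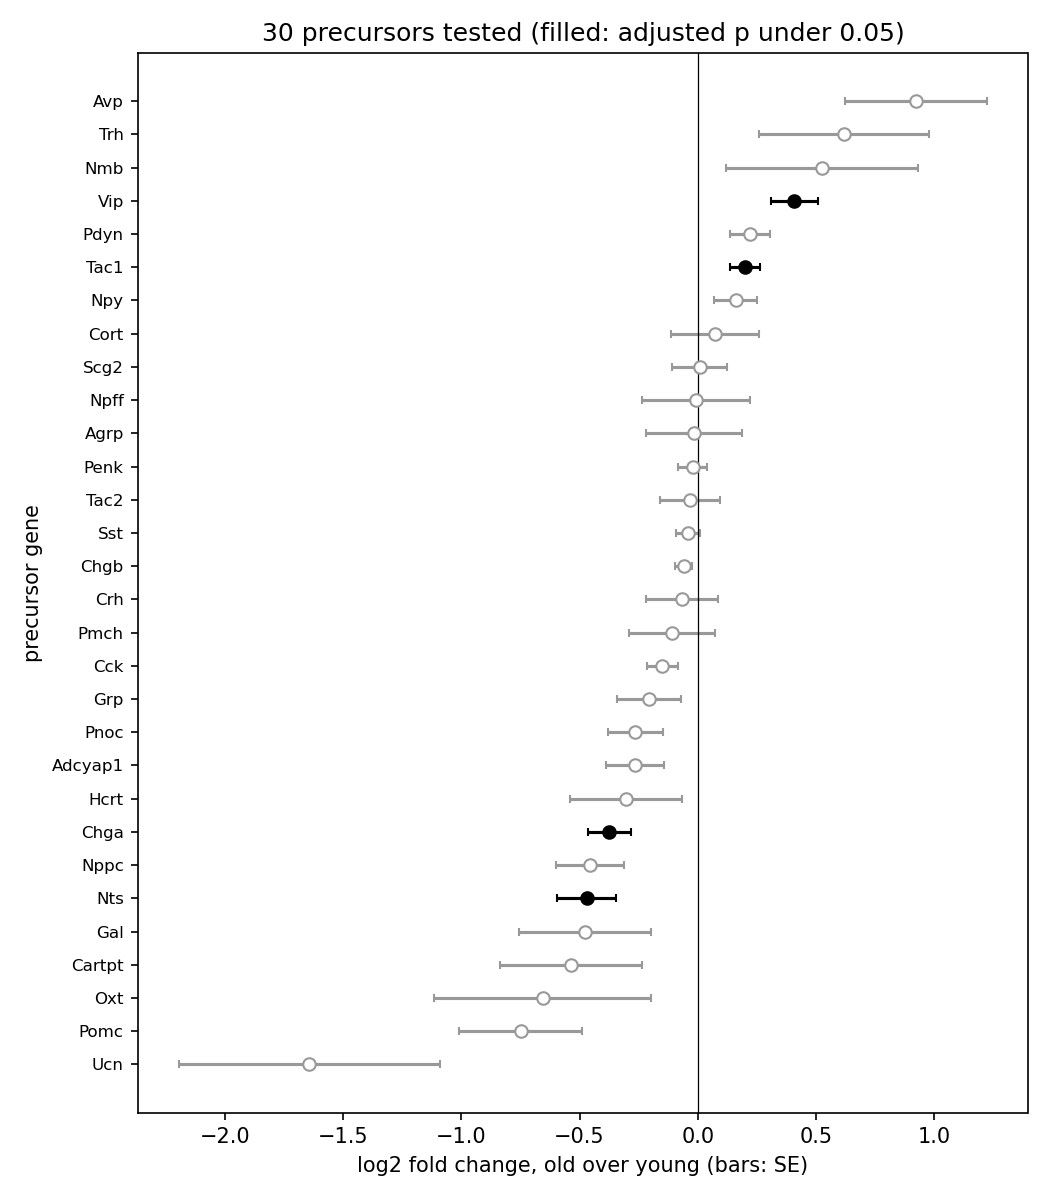
Log2 fold change, old over young, with its standard error (horizontal axis) for the 30 precursors tested by edgeR, in order of size (vertical axis). Filled points mark the 4 with an adjusted p under 0.05, Vip and Tac1 to the right of 0 and Nts and Chga to the left, and they are not the largest changes, since Ucn (-1.64) and Avp (0.92) have wider bars.

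The calls changed with the libraries used. Without old 1 and old 3, the old libraries low in Hoxa5 and Hoxb5, edgeR called 0 of the 30 members, with 6 at an unadjusted p under 0.05, and 5.85% of all genes. With the midbrain and hindbrain marker level as a covariate it called 0, with 5 at an unadjusted p under 0.05, and 6.04% of all genes, so calls fell over all genes too. With the olfactory bulb level as a covariate it called Chga and Nts, and 9.26% of all genes. With the hypothalamus level it called Vip alone, and 6.27% of all genes. Without young 2 and old 5 it called Avp, Chga, Nts and Tac1, and 7.58% of all genes. Leaving out 1 library at a time gave between 1 call (without young 5, 8.61% of all genes) and 7 calls (without young 1, 8.23%). It gave 2 calls without young 3 (8.74% of all genes), without old 1 (9.1%) or without old 3 (9.65%).

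**Figure D3:**
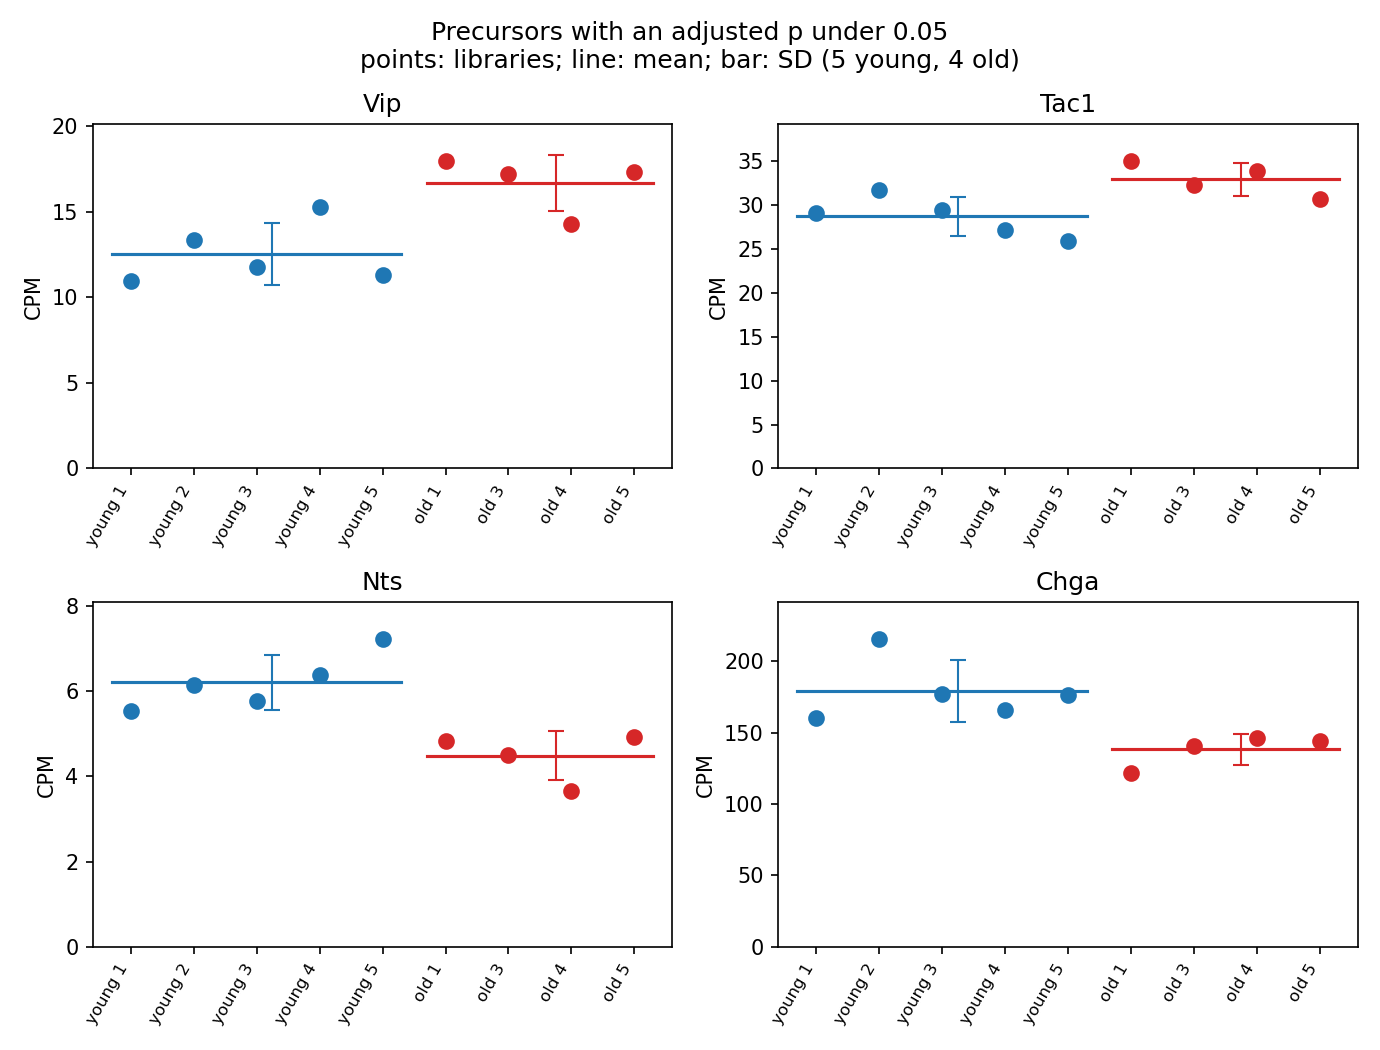
CPM of the 4 called precursors in each library (points), with the mean and SD of each age (line and bar, 5 young and 4 old). Vip and Tac1 overlap between the ages, while every old library lies below every young library for Nts (at most 4.93 against at least 5.54 CPM) and Chga (at most 146 against at least 161 CPM).

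Of the 6 peptides typical of cortical and hippocampal interneurons, Vip was called. Vip encodes vasoactive intestinal peptide, which marks interneurons that inhibit other interneurons and also occurs in the circadian clock neurons of the suprachiasmatic nucleus. Its gene lies at chr10:5639218-5647617 (GRCm38, plus strand). Vip stood at 10.9, 13.3, 11.8, 15.3 and 11.3 CPM in young 1 to 5 and at 18.0, 17.2, 14.3 and 17.3 CPM in old 1, 3, 4 and 5. Of the old libraries 3 lay above all young ones and old 4 lay below young 4. Vip was 1.33-fold higher in old mice (log2 FC 0.41 ± 0.0996 SE, adjusted p = 0.0139). The call held with each library left out in turn (adjusted p 0.00174 to 0.0438). Without old 1 and 3 the log2 FC of Vip was 0.33 (adjusted p = 0.152), without young 2 and old 5 it was 0.41 (0.0566), and with the midbrain and hindbrain or the olfactory bulb level as a covariate it was 0.27 (0.192) and 0.33 (0.0668). Of 8 markers of inhibitory neurons edgeR called 0 (1 at an unadjusted p under 0.05), and their summed level was 1018 to 1124 CPM in young and 1024 to 1332 CPM in old libraries. On the TPM scale, where the median of all genes shifts by -0.14, the log2 FC of Vip was 0.23 (limma on log2(TPM + 1), adjusted p = 0.517).

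The other interneuron peptides were not called in the main fit. Sst encodes somatostatin, an inhibitory peptide of dendrite-targeting interneurons, and stood at 110 ± 8.89 CPM (young) and 107 ± 1.27 CPM (old) (log2 FC -0.04, 95% interval -0.14 to 0.06). The old libraries lay within 106 and 109 CPM, inside the range of the young ones. Npy, neuropeptide Y, stood at 27.9 ± 3.37 and 31.3 ± 3.41 CPM (log2 FC 0.16, adjusted p = 0.293). Cck, cholecystokinin, which pyramidal neurons make as well, stood at 135 ± 13.9 and 122 ± 4.72 CPM (log2 FC -0.15, adjusted p = 0.168), and was called with no filter on low counts (0.00469). Cort, the somatostatin relative cortistatin, had a log2 FC of 0.07 and Crh, the stress peptide corticotropin-releasing hormone, one of -0.07 (adjusted p = 0.848 and 0.832). Crh ran from 3.56 CPM in old 1 to 6.57 CPM in old 5, so the old libraries spanned the whole range of the young ones.

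Among opioid, tachykinin and RF-amide peptides, Tac1 was called. Tac1 encodes substance P and neurokinin A and is made by striatal projection neurons of the direct pathway, among others. Its gene lies at chr6:7554879-7565834 (GRCm38, plus strand). Tac1 stood at 29.1, 31.8, 29.5, 27.1 and 25.9 CPM in young 1 to 5 and at 35.0, 32.3, 33.8 and 30.6 CPM in the old libraries. The ages overlapped in 1 library of each, since old 5 lay below young 2. Tac1 was 1.15-fold higher in old mice (log2 FC 0.20 ± 0.0624 SE, adjusted p = 0.0466). The call was lost without young 1 (0.0756), young 3 (0.0606), young 4 (0.0933), young 5 (0.113), old 1 (0.133), old 3 (0.0688) or old 4 (0.106), and with DESeq2's Wald test (0.0524). It was also lost without old 1 and 3 (0.237), without robust estimation (0.0556), on the TPM scale (0.918, log2 FC 0.03) and with the olfactory bulb (0.0933), midbrain and hindbrain (0.273) or hypothalamus level (0.0865) as a covariate. Striatal markers (8 genes, most abundant Ppp1r1b) summed to 677 to 790 CPM in young and 671 to 822 CPM in old libraries.

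The other precursors of this group were not called in the main fit. Penk, the enkephalin precursor of the indirect striatal pathway, stood at 147 ± 7.0 CPM (young) and 145 ± 15.5 CPM (old) (log2 FC -0.02, adjusted p = 0.875). The values of Penk are uncertain where counting ignored strand, since exons of A830012C17Rik overlap it on the opposite strand. Pdyn, the dynorphin precursor, had 22.0 to 24.4 CPM in young mice and 32.9, 23.4, 24.8 and 25.5 CPM in old 1, 3, 4 and 5 (log2 FC 0.22, adjusted p = 0.106), with old 1 well above all others, and was called with no filter on low counts (0.0227). Pnoc, which encodes nociceptin, had a log2 FC of -0.26 (adjusted p = 0.165). Tac2, the neurokinin B precursor, and Npff, neuropeptide FF, had values of -0.03 and -0.01 (adjusted p = 0.906 and 0.992). Npff was 1.16 CPM in young 2 and 2.32 to 2.54 CPM in the other young libraries, and its exons are overlapped by Gm28047 on the same strand.

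No peptide of the hypothalamic group was called. Of the 9 tested, edgeR called 0, with 2 (Avp and Pomc) at an unadjusted p under 0.05 (25.5% of all genes), while DESeq2's Wald test called 1, and limma on log2(TPM + 1) called 4 with robust estimation and 4 without it. This group varied most between mice of one age. Avp encodes vasopressin, the antidiuretic peptide of magnocellular and suprachiasmatic neurons, at chr2:130580620-130582554 (GRCm38, minus strand). Avp stood at 8.10, 17.8, 10.9, 9.18 and 11.9 CPM in young 1 to 5 and at 30.9, 22.0, 20.8 and 13.7 CPM in the old libraries. In raw counts this was 155 to 322 in young and 233 to 582 in old libraries. Old 1, 3 and 4 lay above every young library and old 5 below young 2. In the fit Avp was 1.90-fold higher in old mice, but with a wide error (log2 FC 0.92 ± 0.301 SE, adjusted p = 0.10). Avp was called without young 2 (adjusted p = 0.0417), without young 2 and old 5 (log2 FC 1.31, 0.00313), without robust estimation (0.0175), by DESeq2 (0.0274) and by limma on log2(TPM + 1) (0.00154). Without old 1 and 3 the log2 FC was 0.58 (0.416).

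Oxt encodes oxytocin, made in neighbouring magnocellular neurons, and lies beside Avp in the opposite orientation at chr2:130576173-130577054 (plus strand), 3565 bases away. Oxt stood at 2.67, 11.4, 9.35, 6.04 and 9.51 CPM in young 1 to 5 and at 5.74, 3.39, 3.01 and 7.34 CPM in the old libraries. Young 1 was the lowest of all, and every old library lay within the young range (log2 FC -0.66 ± 0.459 SE, adjusted p = 0.431). With the hypothalamus marker level as a covariate the log2 FC of Oxt was 0.12 (adjusted p = 0.897). Limma on log2(TPM + 1) gave Oxt an adjusted p of 0.544, and of 0.000664 without robust estimation. Per length, Avp exceeded Oxt in every library. The ratio of their TPM was 2.83, 1.45, 1.09, 1.41 and 1.17 in young 1 to 5 and 5.02, 6.05, 6.45 and 1.73 in old 1, 3, 4 and 5, so 3 old libraries lay above all young ones and old 5 lay below young 1. The ratio was looked at after both levels were seen and was not tested.

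Trh encodes thyrotropin-releasing hormone, which drives the thyroid axis and is also made outside the hypothalamus. Trh stood at 4.44, 10.8, 4.88, 5.99 and 7.17 CPM in young 1 to 5 and at 7.44, 8.39, 8.04 and 17.2 CPM in the old libraries. Old 5 was the highest and young 2 the second highest, the order of these libraries in olfactory bulb markers as well. The log2 FC of Trh was 0.62 ± 0.361 SE (adjusted p = 0.339), 0.25 without old 5 (0.642) and 0.14 with the olfactory bulb level as a covariate (0.680). Trh, Avp and Oxt had more spread between mice of one age, relative to genes of like abundance, than the other members.

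**Figure D4:**
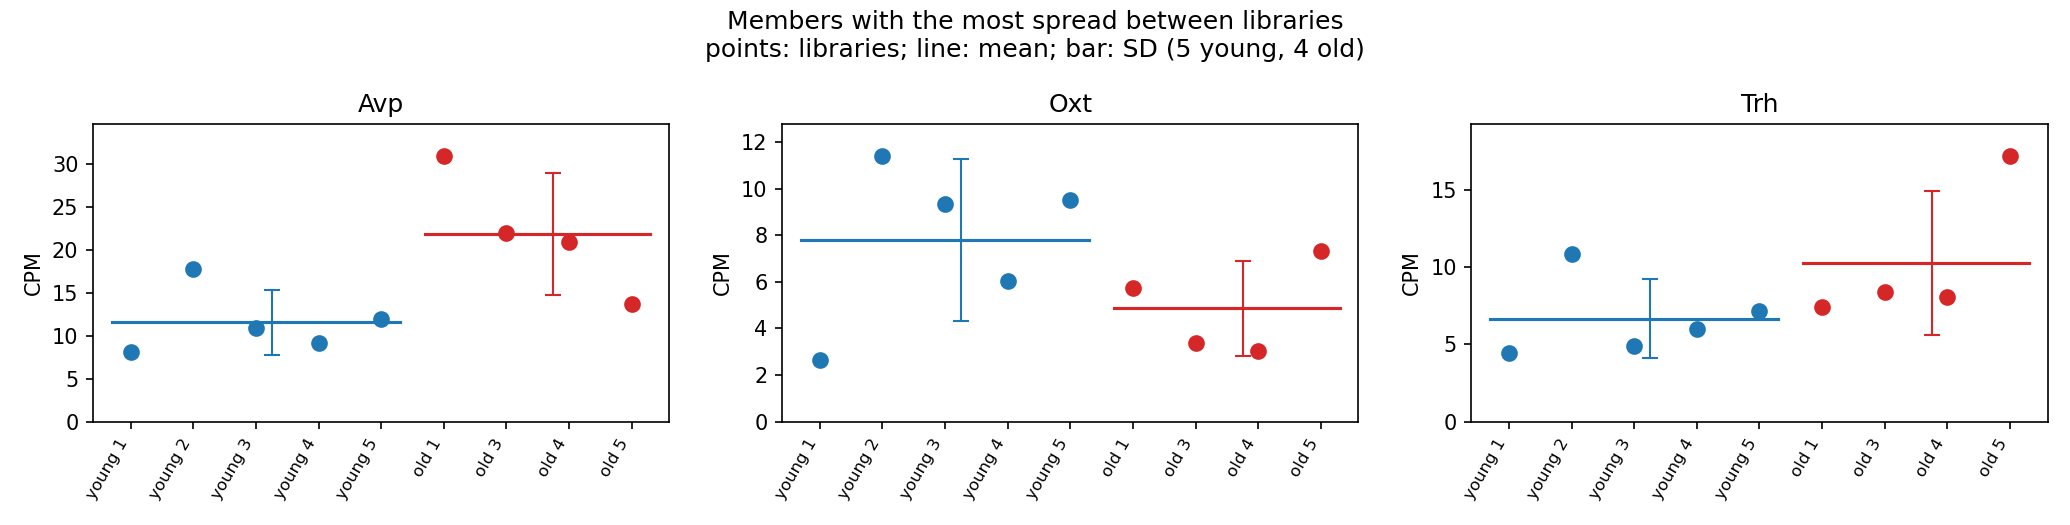
CPM of Avp, Oxt and Trh in each library (points), with the mean and SD of each age (line and bar, 5 young and 4 old). Avp is highest in old 1 (30.9 CPM), Oxt lowest in young 1 (2.67 CPM), and Trh in old 5 (17.2 CPM) lies far above the other libraries.

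None of the 6 peptides of feeding and arousal was called by edgeR, 1 of them (Pomc) having an unadjusted p under 0.05. DESeq2 called none, limma on log2(TPM + 1) called 3 (Cartpt, Gal and Pomc), and edgeR with no filter on low counts called Pomc (0.0148). Pomc, the precursor of melanocortins and beta-endorphin, stood at 1.20, 2.88, 2.54, 1.64 and 2.66 CPM in young 1 to 5 and at 1.01, 1.69, 1.31 and 1.17 CPM in the old libraries (log2 FC -0.75 ± 0.261 SE, adjusted p = 0.0741). It was called without young 1 (adjusted p = 0.0238), the library lowest in hypothalamus markers. Cartpt, which encodes an appetite-suppressing peptide, had a log2 FC of -0.54 (adjusted p = 0.317) and was likewise called without young 1 (0.0341). With the hypothalamus marker level as a covariate, the log2 FC was -0.25 for Pomc (0.618) and 0.01 for Cartpt (0.977). Agrp, the appetite-promoting counterpart of Pomc, was even across libraries at 1.06 to 1.54 CPM (log2 FC -0.02 ± 0.201 SE, adjusted p = 0.983), but its exons are overlapped by Ctcf on the opposite strand and by Gm5914. Hcrt, the precursor of the wake-promoting orexins, had a log2 FC of -0.30 (adjusted p = 0.468). Pmch, melanin-concentrating hormone, had one of -0.11 (0.764), with exons overlapped by Parpbp on the opposite strand. Gal, galanin, had a log2 FC of -0.48 (0.308), with 1.15 CPM in young 1 and 2.49 to 3.16 CPM in the other young libraries.

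The 2 members under the filter belong to the hypothalamic list of 11. Nms, neuromedin S of the suprachiasmatic nucleus, had 1, 2, 0, 2 and 3 counts in young 1 to 5 and 2, 1, 1 and 8 in the old libraries. Ucn3, the stress peptide urocortin 3, had 3, 5, 3, 3 and 3 counts in the young and 7, 9, 3 and 7 in the old libraries. Only old 4 lay within the young range of counts for Ucn3. In a two-sided exact permutation test of mean CPM over 126 splits, p was 0.492 for Nms and 0.0476 for Ucn3 (adjusted over both, 0.0952), where the smallest possible p is 0.00794.

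Among other peptides, Nts was lower in old mice. Nts encodes neurotensin, a modulator of dopamine neurons and of body temperature, at chr10:102481756-102490486 (GRCm38, minus strand). Nts stood at 5.54, 6.14, 5.77, 6.38 and 7.23 CPM in young 1 to 5 and at 4.83, 4.51, 3.67 and 4.93 CPM in the old libraries, which were 84 to 132 and 64 to 91 raw counts. Every old library lay below every young one in CPM. Nts fell to 0.722 of its young level (log2 FC -0.47 ± 0.124 SE, adjusted p = 0.0205). The call was lost without young 5 (0.0586), old 4 (0.0707) or both old 1 and 3 (0.0678), and with the midbrain and hindbrain (0.0534) or hypothalamus level (0.0978) as a covariate. The log2 FC stayed between -0.38 and -0.63 in all alternatives run, with an adjusted p of at most 0.0978.

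Nppc, Ucn and Adcyap1 had the next lowest p of this group. Nppc, the C-type natriuretic peptide, stood at 4.40 to 5.50 CPM in young mice and at 3.45, 2.75, 4.49 and 3.99 CPM in the old ones (log2 FC -0.45 ± 0.143 SE, adjusted p = 0.0501). Ucn, urocortin of the Edinger-Westphal nucleus in the midbrain, had 5, 12, 15, 16 and 14 counts in young 1 to 5 and 0, 6, 7 and 2 in the old libraries (log2 FC -1.64 ± 0.552 SE, adjusted p = 0.0678). Only young 1 fell among the old libraries. With the midbrain and hindbrain level as a covariate the log2 FC of Ucn was -0.71 (0.549), and old 1, at 0 counts of Ucn, was also lowest in those markers. Nppc was called in 13 of 27 alternatives, among them DESeq2's Wald test (0.0497), DESeq2 size factors (0.0496), limma on log2(TPM + 1) (0.0179) and the fits without young 4 (0.0361) or old 4 (0.0264). With the midbrain and hindbrain level as a covariate the adjusted p of Nppc was 0.378. Ucn was called in 5 alternatives, among them without young 1 (0.0324) and with no filter on low counts (0.00328). Adcyap1, which encodes the peptide PACAP, had a log2 FC of -0.26 (0.196) and was called without young 1 (0.0139) and with no filter on low counts (0.0109). Grp, gastrin-releasing peptide, had a log2 FC of -0.21 (0.369). Nmb, neuromedin B, had one of 0.53 (0.473), with 8.22 CPM in old 5 and 1.97 to 4.43 CPM in the other 8 libraries, and its exons are overlapped by Sec11a on the same strand.

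The granins are acidic proteins of the dense core granule that help to form it and are themselves cut into peptides, and of the 3 measured Chga was lower in old mice. Chga encodes chromogranin A at chr12:102554969-102565028 (GRCm38, plus strand). Chga stood at 161, 216, 178, 166 and 176 CPM in young 1 to 5 and at 122, 140, 146 and 144 CPM in the old libraries. Every old library lay below every young one. Chga fell to 0.772 of its young level (log2 FC -0.37 ± 0.0896 SE, adjusted p = 0.0265). The call was lost without young 3 (0.0594), young 5 (0.0578), old 1 (0.0604), old 3 (0.0622) or old 5 (0.0508), while the log2 FC stayed between -0.29 and -0.41 with 1 library left out. With the midbrain and hindbrain or the hypothalamus level as a covariate it was -0.26 in both fits (0.194 and 0.0560), and without old 1 and 3 it was -0.30 (0.176). On the TPM scale it was -0.53 (0.0501). Chgb stood at 441 ± 7.40 CPM (young) and 423 ± 15.8 CPM (old) (log2 FC -0.06 ± 0.0349 SE, adjusted p = 0.308). Scg2, secretogranin II, stood at 265 ± 24.6 and 267 ± 43.8 CPM (log2 FC 0.01 ± 0.115 SE, adjusted p = 0.976), with 330 CPM in old 5.

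The precursors varied more between mice of one age than most genes. The biological coefficient of variation of a gene, relative to the trend for genes of like abundance, was above the 90th percentile of all genes for 14 of the 30 members (46.7%, against 10% of all genes by construction). Of the 9 hypothalamic peptides tested 8 were among them. The share above that percentile was 46.2% for the 13 further peptide precursors tested and 16% for the 100 tested genes of all further lists described below. It was 100% for the olfactory bulb, the cerebellar, and the midbrain and hindbrain markers tested. Among the members, the highest ratios to the trend were those of Oxt (3.03), Avp (2.94) and Trh (2.68), and the lowest was that of Agrp (0.440). Libraries were not equally often extreme. Young 1 held the lowest CPM of 9 of the 30 members tested, 7 of them hypothalamic, and young 2 and old 5 each held the highest of 6. Old 1 held the highest of 7 and the lowest of 5, and old 3 the lowest of 6. The summed level of the 11 hypothalamic peptides was 33.9 CPM in young 1, 80.3 in young 2 and 48.4 to 71.7 in the other libraries. Young 1 was lowest and young 2 highest in the hypothalamus markers too.

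**Figure D5:**
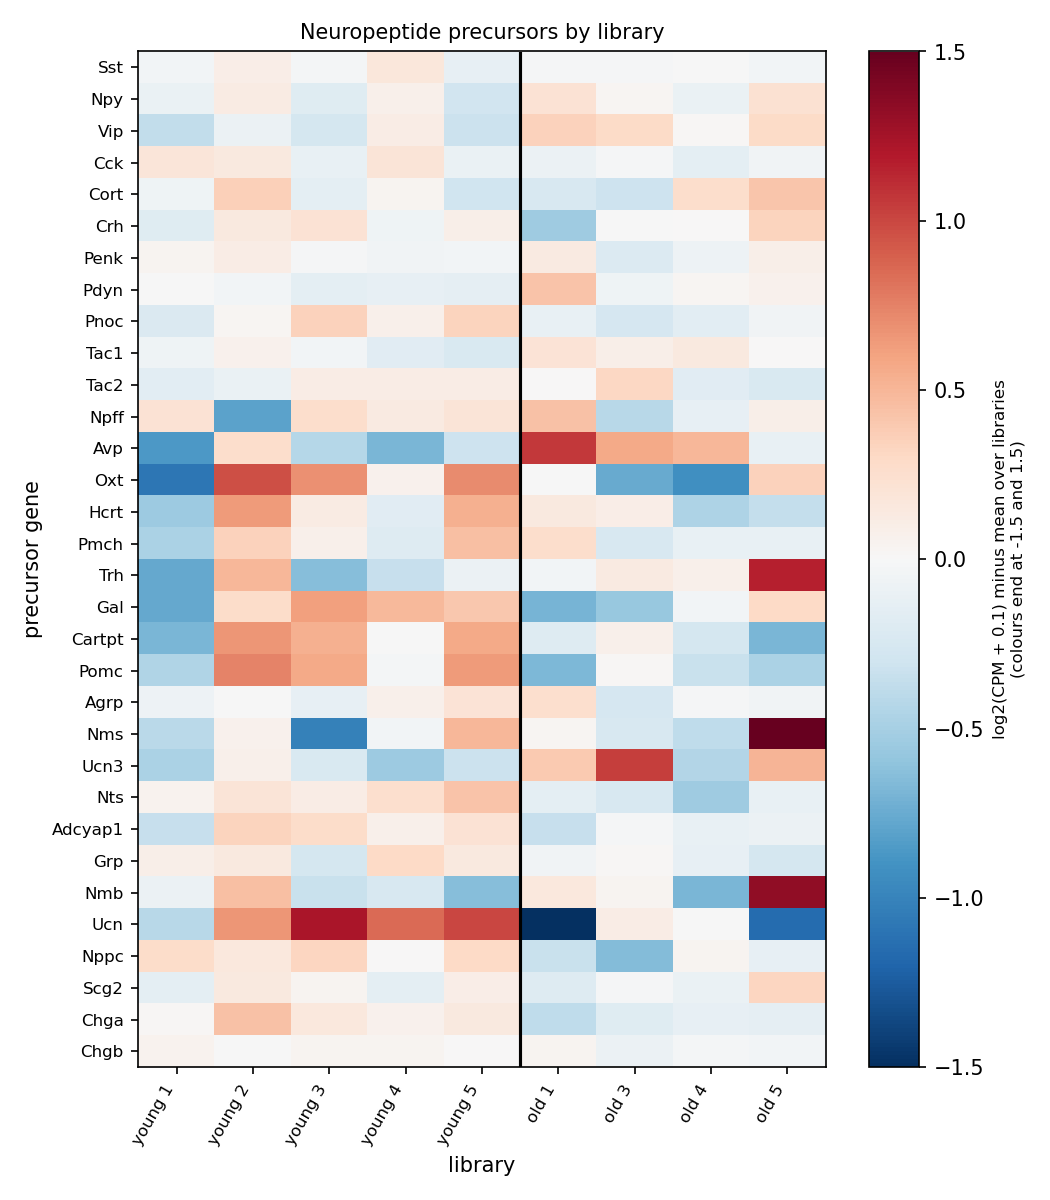
Level of the 32 precursors (rows) in each library (columns) as log2(CPM + 0.1) minus the mean over the 9 libraries, with the ages parted by a line. The hypothalamic rows from Avp to Pomc are blue in young 1 and red in young 2, and Trh, Nms and Nmb are highest in old 5.

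Some promoters of the precursors hold short motifs, which the choice of genes did not use. Promoters of 26 of the 32 members were matched by symbol in RefSeq (GRCm38.p6), and the 250 bases before each start were searched on both strands. A gene with several promoters was counted once if any held the motif, among members and among all 27025 genes of the table alike. The cAMP response element TGACGTCA, to which the activity-dependent factor CREB is known to bind, was found in 5 of the 26 (19.2%) and in 1.77% of all genes (1.55% of all 32851 promoters of the same length). Its core TGACG, which lies within the full element, was found in 13 of the 26 (50%) and in 19.8% of all genes (17.8% of promoters). The E-box CACGTG, a site of circadian clock factors, was found in 3 (11.5%, all genes 6.86%, all promoters 6.02%), and the TATA box letters TATAAA in 6 (23.1%, all genes 14.3%, all promoters 12.4%). None of the 5 genes with the full element was called in the main fit. Their windows are shown because they show the element in its surroundings, with TGACGTCA in capitals, 5′ to 3′ along the gene's strand.
Sst (chr16:23890874-23890903, minus strand, element at -48 to -41 before the start): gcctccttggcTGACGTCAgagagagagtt
Cartpt (chr13:99900777-99900806, minus strand, -112 to -105): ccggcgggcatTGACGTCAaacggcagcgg
Ucn (chr5:31138921-31138950, minus strand, -44 to -37): atgttcttcgcTGACGTCAgtcggagctgt
Scg2 (chr1:79440076-79440105, minus strand, -68 to -61): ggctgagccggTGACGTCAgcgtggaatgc
Chgb (chr2:132781559-132781588, plus strand, -72 to -65): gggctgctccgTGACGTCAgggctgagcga

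The 150 bases before the start of the 4 called genes and of Avp are shown because the results turn on these genes. Capitals mark the core TGACG in either strand (CGTCA when reversed), the E-box CACGTG and the TATA box letters. The start is that of the RefSeq entry, and a match is only a match of letters.
Vip (chr10:5639068-5639217, plus strand): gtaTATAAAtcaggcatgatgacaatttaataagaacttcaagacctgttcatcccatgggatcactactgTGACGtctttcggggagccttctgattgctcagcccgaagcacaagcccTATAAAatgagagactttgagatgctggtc
Tac1 (chr6:7554911-7555060, plus strand): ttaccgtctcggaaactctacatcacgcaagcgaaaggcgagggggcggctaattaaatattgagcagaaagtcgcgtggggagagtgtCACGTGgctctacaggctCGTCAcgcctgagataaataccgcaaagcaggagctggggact
Nts (chr10:102490419-102490568, minus strand): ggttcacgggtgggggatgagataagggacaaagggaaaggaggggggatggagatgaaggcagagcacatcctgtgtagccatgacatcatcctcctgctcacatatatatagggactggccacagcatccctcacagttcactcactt
Chga (chr12:102554791-102554940, plus strand): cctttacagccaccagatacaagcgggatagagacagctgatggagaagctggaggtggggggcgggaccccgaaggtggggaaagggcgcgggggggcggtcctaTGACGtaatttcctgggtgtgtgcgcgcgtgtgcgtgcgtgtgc
Avp (chr2:130582589-130582738, minus strand): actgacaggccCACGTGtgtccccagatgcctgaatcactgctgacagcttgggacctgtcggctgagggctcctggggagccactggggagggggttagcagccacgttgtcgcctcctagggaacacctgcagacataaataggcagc
Vip and Chga carry the core TGACG at -79 and -44, and Tac1 carries its reverse complement at -43 beside an E-box at -61. In Nts the core lies further out, at -166, and in Avp the window holds an E-box at -139.

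Genes that process, store, degrade and receive neuropeptides were followed in 5 lists of 123 genes, of which 121 had a row and 100 passed the filter. Of these 11 were called (11%), 3 higher and 8 lower in old mice, the same share as among all genes. The median log2 FC over the 100 was -0.02.

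Of 13 genes of prohormone processing, 2 were called. Furin, a convertase of the trans-Golgi network, stood at 49.0 ± 2.18 CPM (young) and 54.9 ± 3.25 CPM (old) (log2 FC 0.17 ± 0.0496 SE, adjusted p = 0.0396), and its call was lost without 7 of the 9 libraries (adjusted p up to 0.118, without old 4). Its exons are overlapped by Gm44851 on the opposite strand. On the TPM scale, where the median of all genes shifts by -0.14, the log2 FC of Furin was -0.0035. The call of Furin was also lost without young 2 and old 5 (0.0802) and with the olfactory bulb (0.104) or midbrain and hindbrain level (0.0575) as a covariate. Pcsk5, another convertase, stood at 11.5 ± 1.69 and 8.94 ± 0.819 CPM, with no overlap (log2 FC -0.37 ± 0.106 SE, 0.0319), and was lost without young 2 (0.0719), old 1 (0.0751), old 4 (0.0823) or old 5 (0.0761). Pcsk5 was lost as well without old 1 and 3 (0.0707), without young 2 and old 5 (0.134), on the TPM scale (0.246) and with the midbrain and hindbrain (0.109) or hypothalamus level (0.203) as a covariate. The neuroendocrine convertases Pcsk1 and Pcsk2 had values of 0.05 and -0.08 (0.827 and 0.345). Cpe, the carboxypeptidase that trims the cut peptides and the most abundant gene of the list, had a log2 FC of 0.05 (0.543).

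Of 17 dense core granule genes, 2 were called, both lower in old mice. Ptprn2, a granule membrane protein, stood at 224 ± 8.06 CPM (young) and 203 ± 9.12 CPM (old), with no overlap (log2 FC -0.15 ± 0.0397 SE, adjusted p = 0.0223). Rab27b, a GTPase that docks granules, stood at 34.2 ± 2.76 and 28.4 ± 2.19 CPM (log2 FC -0.27 ± 0.0666 SE, 0.0148). With 1 library left out, Rab27b was lost without old 5 (0.0549), and Ptprn2 without young 2 (0.0519), young 3 (0.0598), old 4 (0.0775) or old 5 (0.0594). Rab27b was also lost with the olfactory bulb (0.0833), midbrain and hindbrain (0.0999) or hypothalamus level (0.0530) as a covariate and on the TPM scale (0.253). Ptprn2 was also lost without young 2 and old 5 (0.106), with the hypothalamus level as a covariate (0.0955) and on the TPM scale (0.406). The most abundant gene, Rab3a, had a log2 FC of -0.05 (0.334). Of 16 peptide degrading enzymes Ece2 was called. Ece2, an endothelin-converting enzyme of acidic compartments that also cuts neuropeptides, stood at 59.998, 52.5, 59.7, 54.7 and 57.4 CPM in young 1 to 5 and at 48.2, 44.6, 48.5 and 44.7 CPM in the old libraries. The ages did not overlap (log2 FC -0.29 ± 0.0505 SE, adjusted p = 0.00154), and the call held with each library left out (at most 0.00718). On the TPM scale its adjusted p was 0.157 (limma, log2 FC -0.43). Exons of Ece2 are shared with Gm49333 on the same strand. Npepps, the most abundant of the list, had a log2 FC of -0.07 (0.199).

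Of 41 neuropeptide receptors tested, 3 were called (Vipr2, Ntsr2 and Hcrtr1). Vipr2, a receptor for Vip and PACAP, stood at 5.17, 6.86, 5.70, 5.02 and 3.58 CPM in young 1 to 5 and at 11.3, 9.73, 7.77 and 17.8 CPM in the old libraries. Every old library lay above every young one, with old 5 the highest (log2 FC 1.14 ± 0.260 SE, adjusted p = 0.0239). The log2 FC was 0.86 without old 5 (0.00648), 0.75, 1.08 and 1.18 with the olfactory bulb, midbrain and hindbrain, and hypothalamus levels as covariates (0.00372, 0.150 and 0.0926) and 1.27 without old 1 and 3 (0.0969), and the call was lost without young 1 (0.0625), young 3 (0.0554), young 4 (0.0617) or old 1 (0.0616). Vipr1, the other Vip receptor, had a log2 FC of 0.07 (0.720), and the PACAP receptor Adcyap1r1 one of 0.13 (0.0539). Ntsr2, a neurotensin receptor of astrocytes, stood at 92.7 ± 8.16 and 80.9 ± 3.76 CPM, with no overlap (log2 FC -0.20 ± 0.0573 SE, 0.0387), and was lost without young 2, young 3, young 5, old 1, old 3 or old 5 (0.0566 to 0.104). Its log2 FC was -0.10 with the hypothalamus level as a covariate (0.280), -0.14 with the midbrain and hindbrain level (0.284), -0.14 without old 1 and 3 (0.297) and -0.16 without young 2 and old 5 (0.0813), and on the TPM scale its adjusted p was 0.311. The other neurotensin receptors Ntsr1 and Sort1 had values of -0.16 (0.436) and 0.05 (0.446), and Sort1 was the most abundant gene of the list.

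Hcrtr1, an orexin receptor prominent in the locus coeruleus of the hindbrain, stood at 4.76, 2.93, 3.85, 4.25 and 4.69 CPM in young 1 to 5 and at 1.59, 2.75, 2.68 and 3.05 CPM in the old libraries. Old 5 lay above young 2 (log2 FC -0.71 ± 0.192 SE, adjusted p = 0.0231). Without old 1 and 3 the log2 FC of Hcrtr1 was -0.52 (0.162), with the midbrain and hindbrain level as a covariate -0.45 (0.281) and with the olfactory bulb level -0.64 (0.0862), with calls lost without young 1 (0.0629), young 5 (0.0597) or old 1 (0.0709). The other orexin receptor, Hcrtr2, had a log2 FC of -0.34 (0.154).

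Of 13 tested genes among 32 further peptide precursors, 3 were called. Apln, which encodes the vascular and neuronal peptide apelin, stood at 34.0, 24.8, 33.0, 27.9 and 33.2 CPM in young 1 to 5 and at 19.8, 23.5, 21.7 and 21.1 CPM in the old libraries. Every old library lay below every young one (log2 FC -0.51 ± 0.0904 SE, adjusted p = 0.00266), and Apln stayed under 0.05 in all 27 alternatives (log2 FC -0.42 to -0.66). Adm, adrenomedullin, a dilator of vessels, stood at 2.05 ± 0.489 CPM (young) and 3.40 ± 0.451 CPM (old), with no overlap (log2 FC 0.72 ± 0.181 SE, 0.0159). Adm was under 0.05 with each library left out, without old 1 and 3 its adjusted p was 0.0533, and on the TPM scale 0.112. Rln3, relaxin 3 of the nucleus incertus in the hindbrain, stood at 1.15, 1.77, 1.65, 0.821 and 2.35 CPM in young 1 to 5 and at 0.106, 0.635, 0.821 and 0.235 CPM in the old libraries (log2 FC -1.77 ± 0.444 SE, 0.0197). Old 4 lay just under young 4, old 1 was lowest in Rln3 as in the midbrain and hindbrain markers, and with their level as a covariate the log2 FC was -0.85 (0.246). The call of Rln3 was lost without old 5 (0.0617), without old 1 and 3 (0.0994), without young 2 and old 5 (0.108) and with the hypothalamus level as a covariate (0.111). The most abundant of this list by TPM was Apln. Of the 5 endothelial markers 3 were called higher in old mice, as was Adm, while Apln was lower and the other 2 markers were not called. The part of endothelial content in the results for Adm and Apln was not tested.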

How the data were processed

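According to the study's methods, reads of polyA-selected libraries were trimmed with Trimmomatic, aligned to GRCm38 with STAR, and uniquely mapped reads on exons were counted per gene with featureCounts. The authors deposited raw counts per Ensembl gene, TPM values, and normalised counts, a signal in which each library's counts were divided by its DESeq2 size factor (17994 genes). Strand handling is stated only for strand-specific libraries. Symbols and positions came from GENCODE M21, and 345 gene IDs had no symbol. A single column of per-sample values (1 in every table) matched no listed sample and was not used.

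From the counts, genes were kept with filterByExpr (minimum count 10), normalised with TMM and tested with edgeR 4.0.16 (glmQLFit with robust estimation, glmQLFTest; R 4.3.3), with Benjamini-Hochberg adjustment over 18492 genes. Robust estimation was set after the counts of calls with and without it were seen (2031 and 2039), to match earlier processing of these data. Members, lists and tests were chosen with earlier results of these data known. The alternatives were DESeq2 1.42.0, limma 3.58.1 on TPM and normalised counts, other factors and filters, and libraries left out. Limma was first run with a trended prior alone, and robust estimation was chosen after those p-values were seen. Both versions are given. The covariates and pairs of libraries left out were added after the data were seen. Named were all members and, per further list, genes with an adjusted p under 0.05 and the most abundant gene. Receptors and convertases related to these (Pcsk1, Pcsk2, Vipr1, Adcyap1r1, Ntsr1, Hcrtr2) and per-library values of further members were given after their values were seen. Libraries of one age differed beyond sampling noise (chi-square over degrees of freedom 3.71 or more in every pair). Each library is from 1 mouse, and p-values measure the spread between mice. Some marker genes are not reported here.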

Additional observations from a re-analysis of the deposited data

Results flagged for a closer look

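In 88 groups of 4 or 5 libraries looked at for a library far from the others of its age (Dixon's ratio of the gap to the range, on log2 CPM), 5 stood apart, where chance gives about 1 in 20 groups (4.4). Young 2 was low in Npff (ratio 0.874), with 1.16 CPM against at least 2.32 CPM in the other young libraries. Old 5 was high in Trh (0.858), with 17.2 CPM against at most 8.39 CPM. Young 1 was low in Gal (0.746), with 1.15 CPM against at least 2.49 CPM. Young 2 was high in the summed olfactory bulb markers (0.871), with 64.5 CPM against at most 19.0 CPM. Old 3 was high in the summed astrocyte markers (0.848), with 3412 CPM against at most 3316 CPM.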

How the results depend on the processing

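Of 1139 values of single genes under alternatives, 946 stayed on their side of the threshold, 141 calls were lost, 48 were gained and 4 values of a called gene turned direction. Those 4 were all on the TPM scale, where the median of all genes shifts by -0.14 or -0.16. Cort and Scg2 also changed sign on that scale, without a call. In all 54 values of 13 genes changed sign, the others without a call in either fit, such as Oxt and Cartpt with the hypothalamus covariate (the called gene was Furin on TPM with limma, robust or not, -0.0035 with a pseudocount of 1 and -0.0032 with 0.1). The count of called precursors (4) was 10 with no filter on low counts, 7 with limma on log2(TPM + 0.1), 8 and 9 with limma on log2(TPM + 1) and log2(TPM + 0.1) without robust estimation (the version run first, with 1 higher and 7 or 8 lower), 0 with the fold threshold, 2, 0 and 1 with the olfactory bulb, midbrain and hindbrain, and hypothalamus markers as covariates and 0 without old 1 and 3. With 1 library left out it ran from 1 to 7. The median log2 FC of the precursors was -0.23 and -0.24 with TPM, where all genes shift by -0.14 and -0.16, whether robust or not, and -0.18 with the olfactory bulb covariate. It was 0.003 with the hypothalamus covariate and -0.13 to -0.05 with 1 library left out. The count in the 5 further lists (11) was 17 with no filter, 4 and 3 with TPM (4 and 4 without robust estimation), 4 with the fold threshold, 4 and 6 with the hindbrain and hypothalamus covariates, 6 without old 1 and 3 and 7 without young 2 and old 5, and 5 to 11 with 1 library left out. Called markers (10) ran from 4 to 10. The count over all genes (2031) was 518 and 507 with TPM (594 and 600 without robust estimation), 463 with the fold threshold, 1116 and 1160 with the hindbrain and hypothalamus covariates and 1081 without old 1 and 3, and 1514 to 2033 with 1 library left out. The causes were not tested.

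The main fit did not pair the samples by replicate number. Deviations of same-numbered libraries correlated at 0.180, -0.12, 0.0971 and -0.032 for replicates 1, 3, 4 and 5. The same-numbered old library correlated best with young 1 and young 4, but not with young 3 and young 5. These correlations were not tested and cannot exclude a pairing. With the replicate block over 4 numbers, 5 precursors (Chga, Nts, Tac1, Trh at 0.00222 and Ucn at 0.0384) and 9.89% of all genes were called. Adjusted p-values were then 0.0661 for Vip, 0.0806 for Vipr2, 0.0865 for Pcsk5, 0.0891 for Ntsr2, 0.0545 for Ptprn2 and 0.0727 for Rln3.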
